A study of Mus musculus with 40 samples.

Results

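The genes described here are 10 genes that mark hepatocytes around the central vein of the liver lobule or report on Wnt signalling there: Glul, Oat, Slc1a2, Rhbg, Axin2, Lgr5, Rnf43, Znrf3, Tbx3 and Lect2. They were picked by name from the 55359 genes in the count tables, and all 10 passed the filter on low counts that left 15373 genes tested. Hepatic RNA-Seq libraries came from 40 male C57BL/6 mice, 1 library a mouse, 5 mice in each of 8 groups. Mice were 30 days old at the start and 58 days old at the end. They received 7 gavages, 1 every 4 days over 28 days, of sesame oil vehicle alone or of TCDD in that oil, at 0.03, 0.1 or 0.3 μg/kg, at 1 or 3 μg/kg, or at 10 or 30 μg/kg. TCDD is a chlorinated dioxin that binds and activates the aryl hydrocarbon receptor (AhR). No allele, transgene or other agent is given for any group. Each library held between 15.5 M and 21.0 M counts in genes.

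The liver lobule is zoned along the path of the blood, which enters at the portal triad and leaves at the central vein. Endothelial cells of the central vein secrete Wnt ligands and the R-spondin Rspo3, and the hepatocytes next to them keep β-catenin active, clear ammonia into glutamine and carry much of the drug metabolism of the liver. Portal hepatocytes hold the urea cycle and gluconeogenesis. The libraries are from whole liver, so position in the lobule was not measured, and fewer pericentral hepatocytes cannot be told apart from less RNA per cell.

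The 30 μg/kg library of replicate 1 stood apart from the other 4 of its group, with a score of 81.7 on the first principal component of log2 CPM (counts scaled to the size of the library, after TMM normalization) against 129 to 147, and values that rest on it are given with and without it. The titles of the libraries carry numbers up to 27 in one run and from 28 in another, with 2 or 3 mice of each dose in each run. What the numbers mark is not stated, and values within each run are given beside the main ones. Cell type markers moved with dose: the summed CPM of 7 hepatocyte markers ranged from 98070 to 119300 in vehicle and from 28400 to 59670 at 30 μg/kg, and that of 6 macrophage markers from 137.5 to 196.2 and from 458.0 to 1055. The 30 μg/kg replicate 1 held the highest hepatocyte sum of its group and the lowest macrophage sum. The part of cell composition in the results was not tested.

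Promoter sequences are shown for the 4 genes whose calls at 30 μg/kg held under every way of scaling the libraries, Glul and Lect2, which TCDD repressed, and Axin2 and Slc1a2, which it induced. Each run is the 250 bases before the start of the gene in the RefSeq annotation of GRCm38.p6, read 5′ to 3′ on the strand of the gene. Capitals mark matches on either strand to GCGTG, the core of the dioxin response element bound by the AhR, or to CTTTGAT or CTTTGAA, both forms of the site bound by the TCF and LEF partners of β-catenin. On the opposite strand a match is the reverse complement of these letters. The motifs do not overlap one another.
Glul (chr1:153899679-153899928, plus strand): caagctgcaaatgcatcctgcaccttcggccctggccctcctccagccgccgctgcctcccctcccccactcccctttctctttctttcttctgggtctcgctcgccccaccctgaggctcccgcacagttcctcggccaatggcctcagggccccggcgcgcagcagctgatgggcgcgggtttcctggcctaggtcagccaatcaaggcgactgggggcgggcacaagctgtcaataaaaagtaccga
Lect2 (chr13:56548539-56548788, minus strand): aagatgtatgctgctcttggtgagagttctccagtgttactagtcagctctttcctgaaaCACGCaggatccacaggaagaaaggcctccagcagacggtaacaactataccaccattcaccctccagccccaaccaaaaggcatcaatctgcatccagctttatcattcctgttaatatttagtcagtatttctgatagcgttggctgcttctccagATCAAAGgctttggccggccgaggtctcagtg
Axin2 (chr11:108920099-108920348, plus strand): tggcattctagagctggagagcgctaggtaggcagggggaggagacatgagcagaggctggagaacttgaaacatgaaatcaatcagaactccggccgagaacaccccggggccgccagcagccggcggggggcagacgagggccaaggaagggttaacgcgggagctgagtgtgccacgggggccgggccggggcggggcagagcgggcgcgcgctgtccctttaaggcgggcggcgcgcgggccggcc
Slc1a2 (chr2:102706188-102706437, plus strand): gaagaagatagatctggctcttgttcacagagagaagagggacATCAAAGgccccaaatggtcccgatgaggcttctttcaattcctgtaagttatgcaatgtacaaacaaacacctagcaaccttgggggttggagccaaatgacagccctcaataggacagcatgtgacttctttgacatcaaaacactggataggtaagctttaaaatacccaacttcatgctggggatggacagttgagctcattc

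RefSeq promoters matched 6 of the 10 genes, with 7 windows in all because Rnf43 has 2 of them. CTTTGAT was found in 2 of the 7 windows, those of Lect2 and Slc1a2, and in 3.21% of all 32851 windows of the same length. The Lect2 match began 32 bases before the start of the gene and the Slc1a2 match 207 bases before it. GCGTG was found in 2 of the 7 windows, 1 of Rnf43 and that of Lect2, and in 28.2% of all windows. CTTTGAA was found in none of the 7 and in 4.46% of all. The windows of Glul and Axin2 held none of these letters, which says nothing of sites elsewhere, and the match in Lect2 and in Slc1a2 stands in a gene that fell and in a gene that rose. The sequences of Lgr5, Tbx3, Rhbg and Znrf3 were not used here.

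In vehicle livers the 10 genes differed widely in level. Per kb of exon, Oat stood at 373.0 ± 81.59 CPM per kb (SD, n = 5), Glul at 256.2 ± 24.63 and Lect2 at 107.3 ± 10.07. The ranges of Oat and Glul overlapped. Slc1a2 followed at 7.96 ± 1.33 and Tbx3 at 6.85 ± 1.37, and these neighbours did not differ beyond their spread. Rnf43 stood at 3.99 ± 0.536, Axin2 at 2.02 ± 0.398 and Znrf3 at 1.56 ± 0.152, and the ranges of the last pair overlapped. Lgr5 stood at 0.912 ± 0.171 and Rhbg, the lowest, at 0.250 ± 0.0966 CPM per kb. Rhbg rested on 3 to 12 counts per vehicle library, against a detection floor of 3 counts, so its values carry little weight. Its exons overlap those of Gm38392 in the GENCODE M21 annotation, and reads in more than 1 gene were not counted for either. Exons of Glul, Axin2, Slc1a2 and Tbx3 overlap genes on the opposite strand (Teddm2, Gm11670, Gm13872 and Tbx3os1), and those of Glul also Mir8114 on the same strand. The counts keep no strand, so the same rule on shared reads holds for these overlaps.

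The first question was at which dose each gene departed from vehicle. A gene was called when edgeR's quasi-likelihood test gave a Benjamini-Hochberg adjusted p under 0.05 over all genes tested and the fold change was at least 1.5. None of the 10 was called at 0.03, 0.1 or 0.3 μg/kg, where 0.0195%, 0.0976% and 0.468% of all genes were. At an unadjusted p under 0.05 these doses gave 0, 1 and 1 of the 10 (Slc1a2 both times), and DESeq2 called 0, 0 and 0. At 1 μg/kg 1 gene was called (Slc1a2, higher), against 2.78% of all genes. At 3 μg/kg 2 were called (Slc1a2 higher, Lect2 lower), against 6.75%. At 10 μg/kg 5 were called, 2 higher (Axin2, Slc1a2) and 3 lower (Glul, Lgr5, Lect2), against 21.8% of all genes, of which 13.6% were higher and 8.13% lower. At 30 μg/kg 6 were called, the same 5 and Rnf43, 2 higher and 4 lower, against 42.1% of all genes, 23.2% higher and 18.9% lower. Genes whose livers do not overlap with vehicle were counted from 1 μg/kg on only. Of the 10 genes, 2 stood apart at 1 μg/kg (Slc1a2 and Lect2) against 7.45% of all genes, and the same 2 at 3 μg/kg against 9.72%. Apart at 10 μg/kg were 5 (Glul, Axin2, Lgr5, Slc1a2 and Lect2) against 23.0%, and at 30 μg/kg 3 (Glul, Znrf3 and Lect2) against 37.6%. The 10 genes had a median log2 fold change of -0.20 at 30 μg/kg and all genes one of 0.03, which with libraries scaled by total counts alone were 0.27 and 0.52. With that scaling the balance of calls turned, from 2 higher and 3 lower to 3 higher and 2 lower at 10 μg/kg, and from 2 higher and 4 lower to 3 higher and 2 lower at 30 μg/kg.

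**Figure D1:**
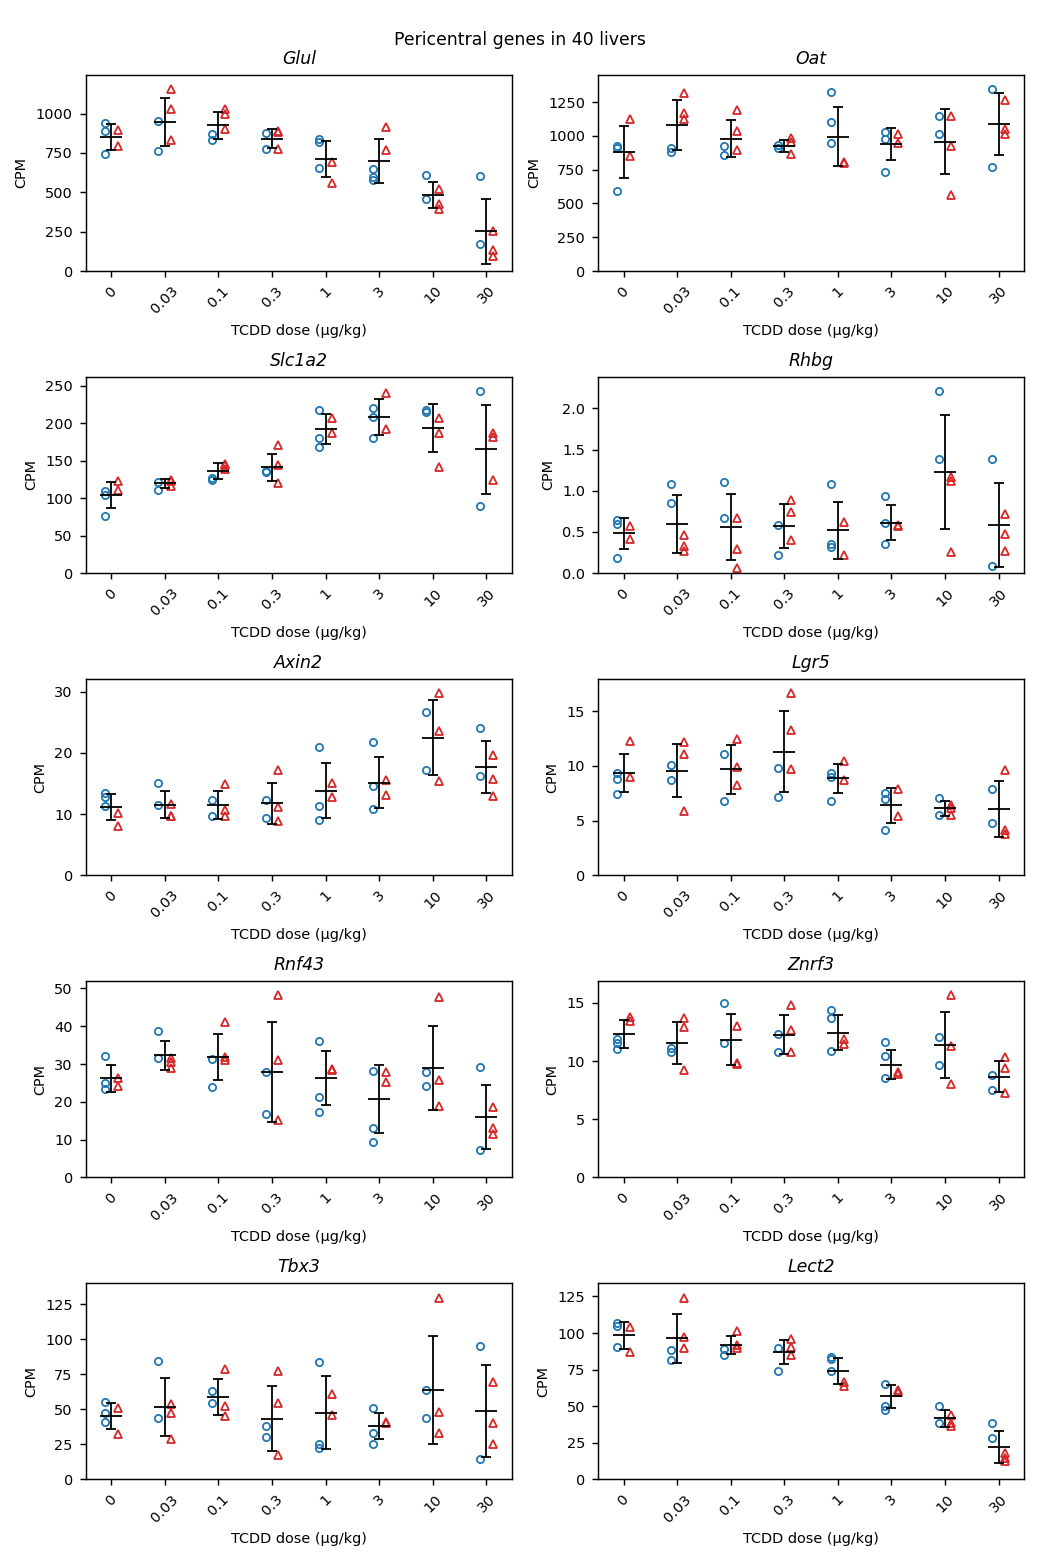
CPM of each of the 10 genes (y axis, from 0) at each TCDD dose (x axis, μg/kg, 0 is vehicle), with 1 point for each of the 40 livers, circles for title numbers up to 27, triangles for those from 28, and the mean and SD of 5 mice in black. Glul and Lect2 fall toward 30 μg/kg, Slc1a2 rises from 1 μg/kg, Axin2 is highest at 10 μg/kg, and Oat stays between 559.8 and 1346 CPM.

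Glul, the glutamine synthetase that marks the innermost ring of pericentral hepatocytes, was repressed. The 5 vehicle livers held 741.4, 939.2, 892.0, 791.3 and 893.0 CPM, the 10 μg/kg livers 608.5, 454.6, 396.3, 522.4 and 428.9, and the 30 μg/kg livers 606.2, 170.4, 135.0, 93.8 and 251.7. Every liver at 10 and 30 μg/kg lay below every vehicle liver, and replicate 1 at 30 μg/kg was the highest of its group. Glul fell by 0.82 on the log2 scale at 10 μg/kg (SE 0.26, adjusted p = 0.0122) and by 1.76 at 30 μg/kg (SE 0.26, adjusted p = 3.99e-07), a 3.39-fold repression. With replicate 1 of the 30 μg/kg group left out, the value was -2.39. Within the 2 runs of title numbers it was -1.16 and -2.42. At 10 μg/kg the values within the runs were -0.70 and -0.91, called in the second only. The step from 10 to 30 μg/kg was itself called, with a fall of 0.94 (SE 0.26, adjusted p = 0.00433), but not with the groups compared alone or within the first run of title numbers.

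Oat, the ornithine aminotransferase expressed in the same ring, did not follow Glul. Vehicle livers held 590.5 to 1126 CPM with a median of 911.1, and 30 μg/kg livers held 1346, 769.2, 1016, 1268 and 1049. The groups overlapped, with 1 of 5 treated livers below the vehicle mean. Oat was called at no dose, and its log2 fold change was 0.31 at 30 μg/kg (SE 0.17, adjusted p = 0.125). With total counts alone Oat was called higher, at 0.80.

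Whether the 2 enzymes parted was tested within each library, where scaling cancels. The log2 ratio of Glul to Oat was -0.02 ± 0.24 (SD, n = 5) in vehicle, -0.96 ± 0.35 at 10 μg/kg and -2.41 ± 0.98 at 30 μg/kg. It was below every vehicle liver in 5 of 5 livers at either dose. The difference from vehicle was -0.94 at 10 μg/kg and -2.39 at 30 μg/kg, with p = 0.00794 by a 2-sided exact permutation test at either dose, the smallest that 5 against 5 can give, and 0.0159 after Benjamini-Hochberg adjustment over 8 tests. The share of all pairs of genes that part in this way was not computed. Of single genes, 23.0% at 10 μg/kg and 37.6% at 30 μg/kg did not overlap vehicle.

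Slc1a2, the glutamate transporter Glt-1 that takes up glutamate, was induced at a lower dose than any other of the 10 was called. Vehicle livers held 75.7, 109.9, 103.5, 111.2 and 122.2 CPM, the 1 μg/kg livers 180.2, 217.7, 168.3, 187.2 and 206.6, and the 3 μg/kg livers 179.6, 208.3, 219.8, 239.9 and 191.7. The 0.1 μg/kg livers, at 124.0 to 145.9 CPM, lay above every vehicle liver without a call, and the 0.3 μg/kg livers overlapped vehicle. Every liver at 1, 3 and 10 μg/kg lay above every vehicle liver, but at 30 μg/kg, with 242.4, 89.3, 186.8, 182.0 and 124.0 CPM, the groups overlapped. Its log2 fold change was 0.88 at 1 μg/kg (SE 0.16, adjusted p = 0.000371), 0.99 at 3 μg/kg (SE 0.16, adjusted p = 3.03e-05), 0.89 at 10 μg/kg (SE 0.16, adjusted p = 3.18e-05) and 0.66 at 30 μg/kg (SE 0.16, adjusted p = 0.00055). The difference between 30 and 10 μg/kg was not called (log2 -0.23, SE 0.16, adjusted p = 0.286). At 30 μg/kg it was no longer called without 30 μg/kg replicate 1 (0.48) or without vehicle replicate 1 (0.56), nor in the second run of title numbers (0.46).

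Rhbg, an ammonium transporter of pericentral hepatocytes, could not be resolved at this depth. Vehicle livers held 0.597, 0.187, 0.647, 0.420 and 0.573 CPM and the 10 μg/kg livers 2.21, 1.38, 0.261, 1.12 and 1.17, of which 4 lay above every vehicle liver. Its log2 fold change was 1.33 at 10 μg/kg (SE 0.57, adjusted p = 0.0698), which passed the threshold without replicate 3 of that group (1.59), with the 2 groups compared alone (1.34) or with total counts alone (1.52). At 30 μg/kg it was 0.25 (SE 0.58, adjusted p = 0.737). The ratio of Slc1a2 to Rhbg differed on the log2 scale from vehicle by -0.14 at 10 μg/kg and 0.61 at 30 μg/kg, with exact permutation p = 0.746 and p = 0.238.

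Axin2, a negative regulator in the β-catenin destruction complex and a direct transcriptional target of the pathway, was induced. Vehicle livers held 11.3, 12.8, 13.5, 7.98 and 10.2 CPM, the 10 μg/kg livers 26.6, 17.1, 29.7, 15.4 and 23.6, and the 30 μg/kg livers 24.0, 16.2, 19.6, 15.7 and 12.9. All livers at 10 μg/kg lay above all vehicle livers, and at 30 μg/kg the groups overlapped by 1 liver. Axin2 rose by 1.01 on the log2 scale at 10 μg/kg (SE 0.22, adjusted p = 0.000356) and by 0.66 at 30 μg/kg (SE 0.22, adjusted p = 0.00885). At 30 μg/kg it missed the threshold once 30 μg/kg replicate 1 (0.53) or vehicle replicate 4 (0.56) was left out, and within the 2 runs of title numbers it was 0.67 and 0.80, called in the second. At 10 μg/kg the values within the runs were 0.79 and 1.33, again called in the second only.

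Lgr5, the R-spondin receptor that marks stem cells of the gut and pericentral hepatocytes and is also a target of the pathway, moved the other way. Vehicle livers held 7.46, 8.83, 9.32, 12.2 and 8.95 CPM, the 10 μg/kg livers 7.10, 5.49, 6.46, 6.12 and 5.50, and the 30 μg/kg livers 7.87, 4.78, 4.16, 9.61 and 3.79. At 10 μg/kg no liver reached the lowest vehicle liver, and at 30 μg/kg replicates 1 and 4 lay within the vehicle range. Lgr5 fell by 0.61 at 10 μg/kg (SE 0.23, adjusted p = 0.0425) and by 0.63 at 30 μg/kg (SE 0.23, adjusted p = 0.0197), on the log2 scale, folds of 1.52 and 1.55 that sit close to the threshold. The call at 10 μg/kg was lost without any 1 of vehicle replicates 2, 3, 4 or 5 or of 10 μg/kg replicates 2, 3, 4 or 5 (-0.49 to -0.63), with total counts alone (-0.39), with no filter on low counts (-0.59) and with a filter at a mean of 50 counts (-0.58). The call at 30 μg/kg was lost without vehicle replicate 4 (-0.52) or 30 μg/kg replicate 2 (-0.58), 3 (-0.54) or 5 (-0.52), with total counts alone (-0.14), with the filter at a mean of 50 counts (-0.57) and with the groups compared alone (-0.64). Without 30 μg/kg replicate 1 the value at 30 μg/kg was -0.74. Within the 2 runs of title numbers it was -0.45 and -0.88, called in neither. At 10 μg/kg the values within the runs were -0.45 and -0.81, also called in neither.

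Axin2 and Lgr5 were also compared within each library. The log2 ratio of Axin2 to Lgr5 was 0.24 ± 0.50 (SD, n = 5) in vehicle, 1.82 ± 0.35 at 10 μg/kg and 1.60 ± 0.55 at 30 μg/kg. It lay above every vehicle liver in 5 of 5 livers at either dose. The difference was 1.57 at 10 μg/kg and 1.35 at 30 μg/kg, again with exact permutation p = 0.00794 and 0.0159 after adjustment over the 8 tests. Each gene alone already stood apart from vehicle at 10 μg/kg, Axin2 above and Lgr5 below. The ratio at that dose therefore had to lie above every vehicle liver, and its p adds no support. How often other pairs of genes part in this way was not computed.

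**Figure D2:**
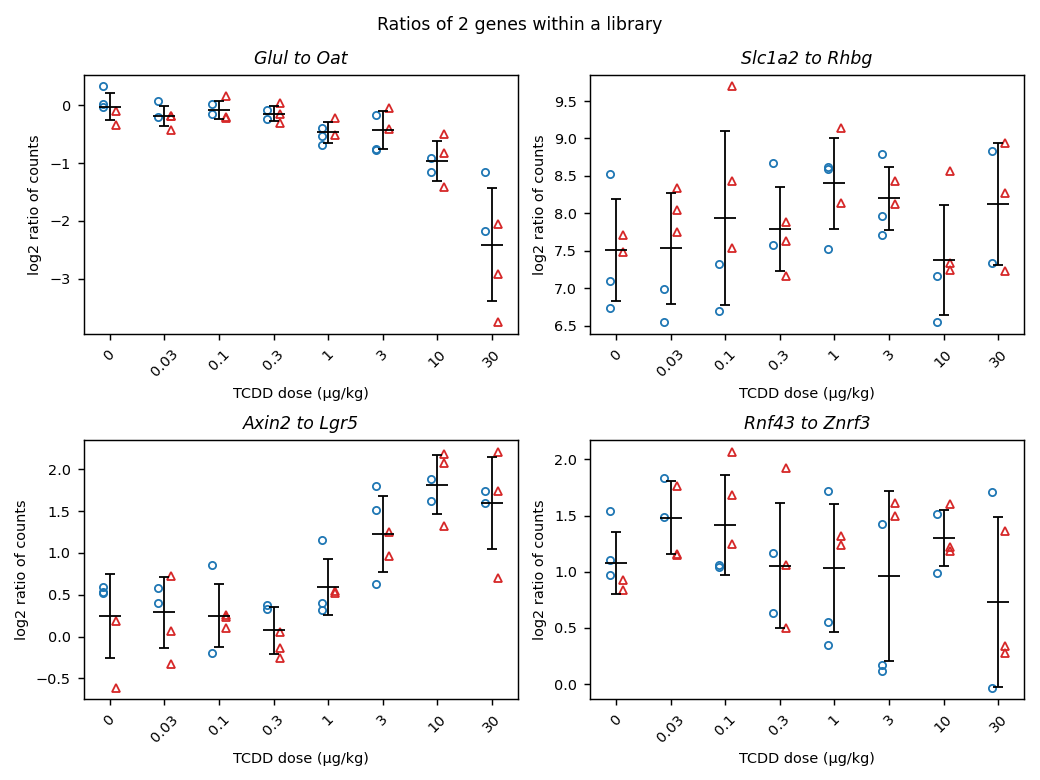
Log2 ratio of the counts of the genes of each pair within a library (y axis) at each TCDD dose (x axis, μg/kg), with points as in the plot of CPM by dose and the mean and SD of 5 livers in black. Glul to Oat falls to -2.41 at 30 μg/kg and Axin2 to Lgr5 rises to 1.82 at 10 μg/kg, while Slc1a2 to Rhbg and Rnf43 to Znrf3 overlap vehicle at both doses.

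Rnf43 and Znrf3, the paired membrane ubiquitin ligases that remove Frizzled receptors from the cell surface, are themselves pathway targets. Rnf43 held 25.1, 23.3, 32.2, 24.1 and 26.2 CPM in vehicle, 27.9, 24.1, 47.8, 25.9 and 18.9 at 10 μg/kg and 29.1, 7.36, 13.1, 11.4 and 18.7 at 30 μg/kg. Replicate 1 at 30 μg/kg lay within the vehicle range and the other 4 below it. Rnf43 stood at a log2 fold change of 0.14 at 10 μg/kg (SE 0.30, adjusted p = 0.762) and -0.72 at 30 μg/kg (SE 0.30, adjusted p = 0.0417), and -1.05 without that library. The call at 30 μg/kg was lost without vehicle replicate 1, 3 or 5 or 30 μg/kg replicate 2, 3 or 4 (-0.55 to -0.74), with total counts alone (-0.25), with no filter on low counts (-0.69) and with the filter at a mean of 50 counts (-0.66). Within the runs of title numbers it was -0.58 and -0.83, called in neither. The fall of 0.86 from 10 to 30 μg/kg was called (SE 0.30, adjusted p = 0.026), but not with the groups compared alone, with total counts alone, within the first run of title numbers or without 10 μg/kg replicate 3 or 30 μg/kg replicate 2, 3 or 4.

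Znrf3 changed by less than the fold threshold. It held 11.6, 11.9, 11.0, 13.4 and 13.8 CPM in vehicle and 8.80, 7.53, 10.4, 9.41 and 7.21 at 30 μg/kg. The groups did not overlap, as was so for 37.6% of all genes. Its log2 fold change was -0.51 (SE 0.15, adjusted p = 0.00366), and it was -0.01 with total counts alone. It was called without 30 μg/kg replicate 3 (-0.60) and within the second run of title numbers (-0.62). The ratio of Rnf43 to Znrf3 differed on the log2 scale from vehicle by 0.23 at 10 μg/kg and by -0.34 at 30 μg/kg, with exact permutation p = 0.19 and p = 0.357, so a difference between the 2 ligases was not shown.

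Tbx3, a T-box repressor that acts below β-catenin, varied widely between mice at most doses. Vehicle livers held 47.5, 40.9, 55.5, 50.8 and 32.2 CPM and the 30 μg/kg livers 94.9, 14.7, 25.6, 40.6 and 69.7. The treated livers reached both above and below the vehicle range. Its log2 fold change was 0.11 (SE 0.39, adjusted p = 0.831) and turned to -0.27 without replicate 1 and to -0.07 without replicate 5 of the 30 μg/kg group. Over the 40 libraries the log2 CPM of Tbx3 went with that of Rnf43, with Pearson r = 0.735, and r = 0.802 after the dose means were removed. These points share library and sequencing depth, and r is given as a description. The 10 μg/kg liver with the most Tbx3 (129.8 CPM, replicate 3) also held the most Rnf43 of its group (47.8 CPM). Replicate 1 at 30 μg/kg likewise held the most of both genes in its group.

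Lect2, a secreted hepatokine first known as a leukocyte chemotactic factor and also a target of β-catenin in hepatocytes, fell the furthest. Of the 4 promoters printed above, its own holds both GCGTG and CTTTGAT, found in 28.2% and 3.21% of all windows. A link of either to the fall was not tested. Vehicle livers held 90.4, 104.7, 106.7, 86.8 and 104.4 CPM, the 3 μg/kg livers 65.3, 50.4, 47.3, 60.9 and 59.8, the 10 μg/kg livers 50.3, 38.9, 44.2, 36.2 and 38.7, and the 30 μg/kg livers 38.4, 28.4, 12.3, 14.5 and 17.8. From 1 μg/kg on, every treated liver lay below every vehicle liver. Lect2 stood at a log2 fold change of -0.41 at 1 μg/kg (SE 0.18, adjusted p = 0.233), -0.80 at 3 μg/kg (SE 0.18, adjusted p = 0.00208), -1.24 at 10 μg/kg (SE 0.18, adjusted p = 9.11e-07) and -2.15 at 30 μg/kg (SE 0.18, adjusted p = 1.5e-12), a 4.43-fold repression. It was -2.44 without replicate 1 at 30 μg/kg, and -1.61 and -2.72 within the 2 runs of title numbers. The fall of 0.91 between 10 and 30 μg/kg was also called (SE 0.18, adjusted p = 0.00013), though not within the first run of title numbers. Over the 40 libraries Lect2 went with Glul, with r = 0.929, and r = 0.719 after the dose means were removed. Both r include 30 μg/kg replicate 1, which held the most of both genes in its group (606.2 CPM of Glul and 38.4 of Lect2). How far r rests on that library was not tested.

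**Figure D3:**
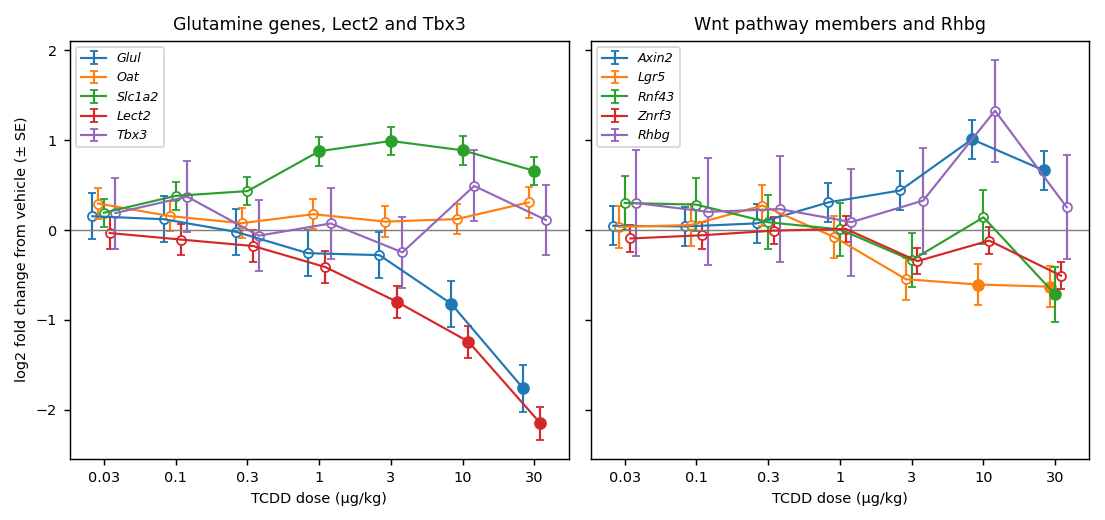
Log2 fold change from vehicle with its SE (y axis) at each TCDD dose (x axis, μg/kg), filled where called and open where not. Glul and Lect2 reach -1.76 and -2.15 at 30 μg/kg, Slc1a2 stands at 0.66 to 0.99 from 1 μg/kg on, and Axin2 (1.01) and Lgr5 (-0.61) part at 10 μg/kg.

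A linear slope over the 8 ordered dose steps, tested with the same adjustment, used every dose at once. It was upward for 2 of the 10 genes, Axin2 and Slc1a2, and downward for 5, Glul, Lgr5, Rnf43, Znrf3 and Lect2, against 57.7% of all genes, 31.5% upward and 26.1% downward. The slope per step was -0.27 for Lect2 (adjusted p = 2.15e-10), -0.21 for Glul (adjusted p = 4.95e-06), 0.13 for Slc1a2 (adjusted p = 2.42e-06) and 0.13 for Axin2 (adjusted p = 1.25e-05). The slopes of Oat, Tbx3 and Rhbg did not pass. That of Rnf43 (-0.09, adjusted p = 0.035) no longer passed without 0.03 μg/kg replicate 1 or without 30 μg/kg replicate 2, 3 or 4. The downward slopes rest on TMM scaling. With total counts alone the log2 fold changes at 30 μg/kg of Lgr5, Rnf43 and Znrf3 were -0.14, -0.25 and -0.01, none of them called. Between 10 and 30 μg/kg 3 of the 10 were called, all lower (Glul, Rnf43 and Lect2), against 21.1% of all genes called and 10.6% lower. Without 30 μg/kg replicate 1 Rhbg was called lower there as well.

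Genes whose log2 CPM over the 40 libraries was most like that of Glul were Inmt (r = 0.958), Fads2 (r = 0.957) and Pccb (r = 0.956), and their log2 fold changes at 30 μg/kg were -6.12, -2.59 and -1.49. For Axin2 they were Iffo2 (r = 0.736), Inpp5j (r = 0.735) and Fgf21 (r = 0.732), which rose by 1.95, 4.24 and 6.61. For Lgr5 they were Caprin1 (r = 0.823), Usf3 (r = 0.810) and Kpna3 (r = 0.803), at -0.65, -1.03 and -0.67. No gene was shared between the 3 sets, and the libraries share dose, so these are likenesses of pattern only.

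The counts of called genes in the lists that follow are to be read against the 23.2% of all genes called higher and the 18.9% called lower at 30 μg/kg. Of the ligands and secreted modulators of the pathway, 15 of 25 listed genes were tested at 30 μg/kg, and 6 were called higher and 2 lower, with a median log2 fold change of 0.19 against 0.03 for all genes. The 3 ligands that central vein endothelium is known for were all higher. Wnt2 held 2.29, 3.86, 2.65, 1.89 and 3.29 CPM in vehicle and 6.34, 6.74, 9.23, 7.90 and 6.70 at 30 μg/kg, with no overlap and a log2 fold change of 1.40 (SE 0.26, adjusted p = 2.27e-05). Wnt9b held 0.846 to 3.05 CPM in vehicle and 2.41 to 5.45 at 30 μg/kg, with overlap and a log2 fold change of 1.28 (SE 0.32, adjusted p = 0.00085). Rspo3, which binds Lgr receptors and holds off Rnf43 and Znrf3, held 3.62 to 5.03 CPM in vehicle and 6.79 to 11.5 at 30 μg/kg, with a log2 fold change of 1.06 (SE 0.20, adjusted p = 1.72e-05). At 10 μg/kg Wnt2 (1.13) and Wnt9b (0.82) were called and Rspo3 (0.56) was not. Wnt9b lay at the threshold there and was not called with relative log expression size factors (adjusted p = 0.0506), and Rspo3 was called with total counts alone (0.78).

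**Figure D4:**
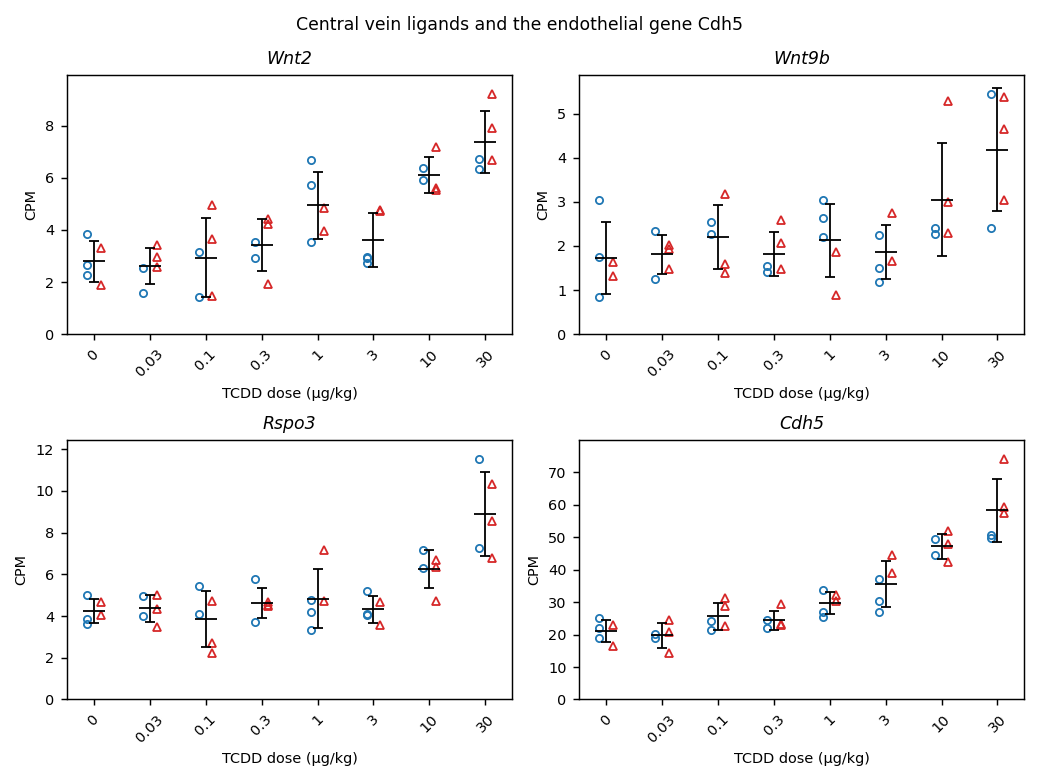
CPM of Wnt2, Wnt9b, Rspo3 and the endothelial cadherin gene Cdh5 (y axis, from 0) at each TCDD dose (x axis, μg/kg), with points as in the plot of the 10 genes. All 4 are highest on average at 30 μg/kg, where Cdh5 stands at 58.2 CPM against 21.0 in vehicle.

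Endothelial markers moved with these ligands. Of the 7 markers 4 were called higher at 30 μg/kg and none lower, with a median log2 fold change of 0.63, and their summed CPM ranged from 146.9 to 194.5 in vehicle and from 257.7 to 346.3 at 30 μg/kg. Cdh5 rose by 1.47 (SE 0.14, adjusted p = 2.42e-11) and Pecam1 by 1.35 (SE 0.18, adjusted p = 3.29e-08), the largest rises of the 7, while the other 5 lay between 0.40 (Stab2) and 0.65 (Lyve1). The part of endothelial RNA in the rise of Wnt2, Wnt9b and Rspo3 was not tested. Among other secreted modulators, Frzb, a decoy for Wnt ligands, rose by 2.85 (SE 0.35, adjusted p = 8.45e-09), Dkk3 by 2.80 (SE 0.34, adjusted p = 5.06e-09) and Wls, which carries Wnt ligands to the cell surface, by 1.64 (SE 0.22, adjusted p = 3.42e-08). Porcn, the acyltransferase that lipidates Wnt ligands, fell by 2.37 (SE 0.24, adjusted p = 7.59e-11), from 3.05 to 5.74 CPM in vehicle to 0.419 to 1.30 at 30 μg/kg. Wnt5b was called lower at -0.69 (SE 0.25, adjusted p = 0.0167), but not with total counts alone (-0.24).

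Of the receptors and transducers 29 of 34 were tested, with 3 higher and 4 lower by the call at 30 μg/kg, 7 in all against 42.1% of all genes, around a median of -0.13. The Frizzled receptors Fzd5 and Fzd8 fell by 1.86 (SE 0.21, adjusted p = 1.16e-09) and 1.36 (SE 0.20, adjusted p = 2.97e-07). Fzd6 rose by 1.26 (SE 0.27, adjusted p = 0.000167) and the little expressed Fzd3 by 2.98 (SE 0.68, adjusted p = 0.000274), from 0.238 to 1.93 CPM on average. Lgr4, the R-spondin receptor related to Lgr5, was called lower at -0.68 (SE 0.16, adjusted p = 0.000404), and it was -0.18 and not called with total counts alone. Ctnnb1, which encodes β-catenin, held 145.9 CPM on average in vehicle and 122.4 at 30 μg/kg, a log2 fold change of -0.25 (SE 0.07, adjusted p = 0.00367) under the fold threshold that turned to 0.24 with total counts alone. With that scaling 12 of the 29 were called higher and 2 lower, so no direction is given for the list.

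Of 10 tested genes among the 11 other general targets of the pathway, 6 were called higher and 1 lower at 30 μg/kg, with a median log2 fold change of 1.98. Tnfrsf19 rose by 2.68 (SE 0.18, adjusted p = 6.35e-15), Cd44, an adhesion receptor also carried by leukocytes, by 2.87 (SE 0.24, adjusted p = 1.46e-12) and Nkd1, a feedback inhibitor, by 1.84 (SE 0.21, adjusted p = 2.28e-09). Sp5, a transcription factor of the same target class, went the other way, from 4.07 to 0.842 CPM on average and a log2 fold change of -2.30 (SE 0.48, adjusted p = 9.32e-05). Macrophage markers rose with this list, 6 of 6 called higher at 30 μg/kg with a median of 2.50, and so did 4 of 6 stellate cell markers (median 1.35) and 4 of 5 tested cholangiocyte markers (median 2.41, with Sox9 lower). Their part in these rises was not tested. Lef1, Tcf7, Notum and Dkk4 each stand in 2 of the lists.

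Pericentral genes that the 10 do not include split in both directions. Of 11 listed and tested, 2 were called higher and 5 lower at 30 μg/kg, with a median log2 fold change of -0.37 that turned to 0.12, with 4 higher and 4 lower, under total counts alone. Cyp1a2, a classic AhR target, rose by 4.49 (SE 0.15, adjusted p = 8.24e-24), and Slc13a3, a dicarboxylate transporter, by 3.22 (SE 0.14, adjusted p = 5.39e-20). Avpr1a, the hepatic vasopressin receptor, fell by 4.78 (SE 0.33, adjusted p = 8.12e-15), Cyp27a1, a sterol hydroxylase, by 1.57 (SE 0.11, adjusted p = 1.77e-14) and Cyp2e1, which oxidises ethanol, by 1.72 (SE 0.21, adjusted p = 4.86e-09).

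Periportal genes mostly fell, with 1 of 15 called higher and 10 lower, against 23.2% and 18.9% of all genes, and a median log2 fold change of -1.75. Cps1, which opens the urea cycle, fell by 2.26 (SE 0.17, adjusted p = 1.23e-13), Hal, the histidine lyase, by 3.98 (SE 0.40, adjusted p = 7.2e-11) and Sds, the serine dehydratase, by 2.90 (SE 0.31, adjusted p = 3.72e-10). Etnppl, an ethanolamine-phosphate lyase, rose by 1.36 (SE 0.14, adjusted p = 1.99e-10). General hepatocyte markers fell as well, 5 of 7 called lower with a median of -1.48. The fall of Glul (-1.76) thus stood near the medians of the periportal and the general hepatocyte lists, and whether it exceeds them was not tested.

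**Figure D5:**
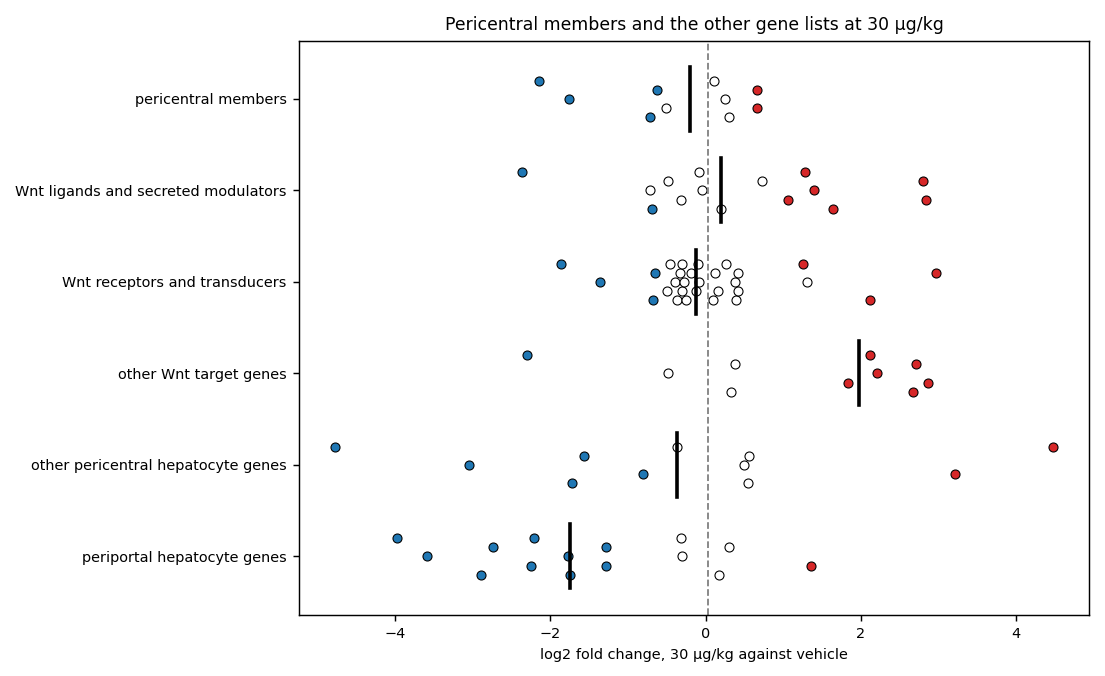
Log2 fold change at 30 μg/kg (x axis) of each tested gene of 6 lists (y axis), red where called higher, blue where called lower and white where not called, with the median of each list as a black bar and that of all genes (0.03) as a dashed line. The pericentral genes lie on both sides of 0 (median -0.20), while the periportal genes lie mostly below it (median -1.75).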

How the data were processed

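For the 40 libraries the authors deposited raw counts of reads in genes, as the STAR aligner writes them. Per the labels, the processing named FastQC 0.11.7, Trimmomatic 0.39 and STAR 2.7.3a with the builds GRCm39 and mm10, whose roles are not stated. The unstranded counts were used, since the first strand column held 50.03% to 50.33% of the counts on both, and rows of unassigned reads were left out (71.3% to 80.8% of reads lay in genes). A normalized table with 40 columns was not used. Replicates within each dose group were compared in 80 pairs, with a chi-square per degree of freedom of at least 10.2, so no library was a copy of another in its group. Libraries of different groups were not compared in this way.

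The 10 genes, the gene lists and the tests were chosen with earlier results of these data known. Of each list up to 3 rises and 3 falls with the lowest adjusted p at 30 μg/kg could be named, plus Wnt2, Wnt9b, Rspo3 and Ctnnb1. The gene pairs Tbx3 and Rnf43 and Glul and Lect2 were singled out after their correlations were seen. Lists are described by counts and medians, with no set test. In the hepatocyte list 7 of 8 symbols were matched.

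The tests ran in edgeR 4.0.16 on R 4.3.3, filterByExpr (minimum count 10, minimum total 15), TMM scaling and 1 mean per dose over all 40 libraries. Quasi-likelihood p-values were Benjamini-Hochberg adjusted within each contrast over 15373 genes. Log2 CPM and ratios used a prior count of 2. CPM per kb used exon lengths of GENCODE M21. The floor of detection was 3 counts, and floors cover counting error alone. Exact permutation tests went through every split of the livers compared, in Python 3.11.15 with NumPy 2.4.6. Quasi-likelihood p-values and SEs rest on a spread between mice estimated for each gene over all 8 groups together. They are not fitted to the spread of a single group. Scripts were tested on simulated data. Alternatives were DESeq2 1.42.0, other scalings, filters and priors, the runs of title numbers, the groups compared alone, no fold threshold and leaving out each library.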

Additional observations from a re-analysis of the deposited data

Results flagged for a closer look

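Among the 80 groups of 5 livers examined, 1 for each of the 10 genes at each dose, 2 held a liver far from the other 4, fewer than the 1 in 20 or so that chance would give. Oat stood at 729.2 CPM in 3 μg/kg replicate 2, below the 948.1 to 1027 CPM of the rest of that group. Rnf43 stood at 38.64 CPM in 0.03 μg/kg replicate 1, above the 28.98 to 31.6 CPM of the rest of that group.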

How the results depend on the processing

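DESeq2, relative log expression size factors and the title-number run as a covariate called the same members at 10 and 30 μg/kg. Title numbers up to 27 alone gave 0 calls at 1 μg/kg, 2 at 10 μg/kg, 3 at 30 μg/kg and 0 between 10 and 30 μg/kg. Numbers from 28 alone gave 0 at 1 μg/kg and 1 at 3 μg/kg. These runs hold 2 or 3 mice a group, and ratios could not be tested within them. The groups compared alone gave 1 call between 10 and 30 μg/kg (Lect2). Of receptors and transducers, 16 were called with no fold threshold (5 higher, 11 lower) and 14 with total counts alone (12 higher, 2 lower). The signs of values that missed the threshold turned for Znrf3 at 10 μg/kg with total counts alone (0.12), for Rnf43 at 10 μg/kg in the first run (-0.062) and without 10 μg/kg replicate 3 (-0.11), for Oat at 10 μg/kg (-0.17) and Rhbg at 30 μg/kg (-0.059) in the second run, for Tbx3 (-0.27) and Rhbg (-0.33) at 30 μg/kg without replicate 1, for Tbx3 without replicate 5 (-0.07), and for the Slc1a2 to Rhbg ratio at 10 μg/kg in the second run (0.12), without 10 μg/kg replicate 1 (0.07) and without vehicle replicate 2 (0.12). Over all livers left out in turn, Rnf43 at 10 μg/kg ranged from -0.11 to 0.26, Tbx3 at 30 μg/kg from -0.27 to 0.33, Rhbg at 30 μg/kg from -0.33 to 0.52 and the Slc1a2 to Rhbg ratio at 10 μg/kg from -0.43 to 0.12. Leaving out each library gave 4 to 5 calls at 10 μg/kg, 4 to 6 at 30 μg/kg and 2 to 4 between them, 6 to 7 slopes, and 2 of 4 ratios past the threshold at either dose. The causes were not tested. No paired analysis was possible because replicate numbers follow accession order and pair no mice. Depth limits Rhbg most, at 3 to 12 counts per vehicle library.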
